A study of Mus musculus with 8 samples.

Results

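Expression of 10 genes of the NF-kB pathway was compared between lung endothelial cells (EC) of mice treated with AB-Tie1-39 and of mice treated with control IgG. The genes were picked by symbol and comprise the transcription factor subunits Nfkb1, Nfkb2, Rela and Relb, the inhibitors Nfkbia and Nfkbie, the feedback genes Tnfaip3 and Birc3, the kinase Ikbkb and the receptor Tnfrsf1a. Of these 10 genes, 9 were measured, among 19505 genes with a symbol on the array. No probe set carried the symbol Nfkb1 in the platform annotation used, so this gene is not analysed here. A probe set is the group of array probes that together report 1 transcript cluster, and where a gene had several, the brightest stood for it.

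AB-Tie1-39 is an antibody that blocks Tie1, a receptor of EC without a known ligand of its own that pairs with the angiopoietin receptor Tie2, the product of Tek. AB-Tie1-39 was given to 4 mice and control IgG to 4 mice, at 40 mg/kg intraperitoneally 2 times per week. All 8 were C57BL/6N mice, injected under the skin at 8 weeks of age with Lewis lung carcinoma (LLC) cells, a mouse lung cancer line, and there is no tumor-free group among these samples. On day 14 lung EC were sorted as CD31+ cells negative for CD45, LYVE1, PDPN, Ter119 and the dead-cell dye DAPI. RNA of each mouse was hybridized to 1 Clariom S mouse array. The labels name lung as the source although their protocol text speaks of liver, and the antibody field of 3 AB-Tie1-39 samples names other targets than the titles do, so the groups follow the titles.

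NF-kB is a family of transcription factors that work as pairs of subunits. In resting cells inhibitor proteins, the IkB family, hold the pairs in the cytoplasm. Tumor necrosis factor, interleukins and microbial products activate a kinase complex that marks the inhibitors for destruction, and the freed pairs enter the nucleus. Among the genes they switch on are their own inhibitors, so that the response limits itself, and in EC also adhesion molecules and chemokines that draw leukocytes out of the blood. Much of the pathway is regulated through protein stability and location, which transcript levels do not report.

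Sequence upstream of the members was examined for the consensus kB site, the DNA sequence of 10 bases that NF-kB pairs bind. Windows from 250 bases before to 50 bases after a transcript start (RefSeq, GRCm38.p6) were at hand for 7 of the 10 members. The consensus, searched on both strands, was found for 4 of these 7 genes (57.1%), namely Nfkb2, Nfkbia, Nfkbie and Tnfaip3, against 1388 of 27025 genes (5.14%) in the whole table, or 4.51% of all windows of this length. Birc3, Rela and Tnfrsf1a had no match in their windows. Shown are the 250 bases before the start for the 4 genes with a match and for Birc3, the member with the smallest p in the comparison of arrays, each written 5′ to 3′ along the gene with matches on either strand in capitals. They come from chr12:55492648-55492897 (minus strand) for Nfkbia, chr10:19015411-19015660 (minus strand) for Tnfaip3, chr17:45555450-45555699 (plus strand) for Nfkbie, chr19:46304487-46304736 (plus strand) for Nfkb2 and chr9:7873171-7873420 (minus strand) for Birc3.
Nfkbia: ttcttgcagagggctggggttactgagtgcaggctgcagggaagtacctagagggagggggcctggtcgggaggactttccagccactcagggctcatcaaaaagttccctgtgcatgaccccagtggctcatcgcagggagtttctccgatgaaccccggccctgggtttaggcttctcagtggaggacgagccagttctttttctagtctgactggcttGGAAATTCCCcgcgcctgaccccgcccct
Tnfaip3: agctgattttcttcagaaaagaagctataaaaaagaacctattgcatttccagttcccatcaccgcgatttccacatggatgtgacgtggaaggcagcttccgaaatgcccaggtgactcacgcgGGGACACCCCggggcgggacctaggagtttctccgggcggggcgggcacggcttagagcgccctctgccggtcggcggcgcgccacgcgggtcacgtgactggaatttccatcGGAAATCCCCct
Nfkbie: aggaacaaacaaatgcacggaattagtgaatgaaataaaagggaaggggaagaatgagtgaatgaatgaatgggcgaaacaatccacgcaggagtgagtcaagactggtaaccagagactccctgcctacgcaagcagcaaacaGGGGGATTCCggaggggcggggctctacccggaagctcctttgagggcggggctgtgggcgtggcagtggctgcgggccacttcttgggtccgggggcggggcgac
Nfkb2: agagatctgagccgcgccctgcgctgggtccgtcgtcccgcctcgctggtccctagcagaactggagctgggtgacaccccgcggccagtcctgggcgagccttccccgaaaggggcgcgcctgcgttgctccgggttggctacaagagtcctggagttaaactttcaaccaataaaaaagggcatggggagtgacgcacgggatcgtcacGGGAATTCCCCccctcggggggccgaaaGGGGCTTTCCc
Birc3: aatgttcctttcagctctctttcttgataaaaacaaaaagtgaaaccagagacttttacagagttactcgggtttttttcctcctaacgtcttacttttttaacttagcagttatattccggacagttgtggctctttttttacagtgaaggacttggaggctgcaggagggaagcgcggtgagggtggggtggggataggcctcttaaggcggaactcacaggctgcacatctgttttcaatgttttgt
The match of Nfkbia ended 20 bases before the start. Tnfaip3 held a match that ended 116 bases before the start and another that ended 3 bases before it. Nfkb2 had matches in each of its 3 windows. The window from chr19:46305680 overlaps that from chr19:46305445, and its match also lies in that window, so it adds no further site. The block shown that ends 29 bases before the start joins overlapping matches on both strands. A match describes these letters only and is not evidence of binding.

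Values are log2 of the deposited, already normalized intensity, and differences are AB-Tie1-39 minus IgG, fitted with limma. Over all arrays the median intensity lay between 183.8 and 189.6. Of 22204 probe sets, 0 (0%) reached a Benjamini-Hochberg adjusted p under 0.05 (smallest adjusted p = 0.344), and 1182 (5.32%) had an unadjusted one below that value, of which 482 (2.17%) were higher and 700 (3.15%) lower. The transcript of the antibody's target, Tie1, averaged 10.999 ± 0.108 in AB-Tie1-39-treated and 11.064 ± 0.197 in IgG-treated mice (SD, n = 4 each), and differed by -0.065 (limma adjusted p = 0.987). That of Tek averaged 11.34 ± 0.043 in AB-Tie1-39-treated and 11.32 ± 0.070 in IgG-treated mice (limma adjusted p = 0.996). The 9 EC markers examined averaged 11.28 to 11.37 on the AB-Tie1-39 arrays and 11.22 to 11.39 on the IgG arrays, whereas 8 leukocyte markers averaged 6.999 to 7.059 on the AB-Tie1-39 and 6.986 to 7.106 on the IgG arrays, within the range of 5.63 to 7.87 spanned by 23 background probe sets without a mouse target. Single values went just above that range. They were Ptprc, the gene of CD45, on AB-Tie1-39 2 (7.88) and IgG 4 (7.92), and Lyz2 on AB-Tie1-39 4 (7.88). Of these 8, 3 had an unadjusted p under 0.05 (2 with a lower and 1 with a higher mean), none of them past the adjusted test. Itgam (-0.40, groups not overlapping) and Cd3e (-0.29) were lower in AB-Tie1-39-treated mice, and S100a9 (0.28) was higher. Control transcripts added at hybridization divide the arrays evenly across treatments. They were at 10.26 to 10.37 (low) on arrays AB-Tie1-39 3, AB-Tie1-39 4, IgG 1 and IgG 2 and at 10.64 to 10.93 (high) on the other 4. Array IgG 4 stood apart from the other IgG arrays in several genes below, so values are also given without it. It was set apart on these same values, so counts without it are no separate support.

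None of the 9 measured members differed between the treatments at an adjusted p under 0.05, with adjusted p-values of 0.921 to 1.00. By mean, 4 were higher in AB-Tie1-39-treated mice (Rela, Nfkbie, Ikbkb and Tnfrsf1a) and 5 lower (Relb, Nfkb2, Nfkbia, Tnfaip3 and Birc3). At an unadjusted p under 0.05, 1 of 9 (Birc3, lower; 11.1%) was called, against 3.15% of all probe sets called lower. The median difference of the members was -0.0045, and that of all tested probe sets was -0.0045 as well. The values of the groups overlapped for every measured member, while they did not overlap for 3.17% of all probe sets (1.78% lower and 1.38% higher in AB-Tie1-39-treated mice). In RNA from sorted bulk cells, fewer cells of a type and less RNA per cell cannot be told apart. The 95% intervals of the differences reached 0.17 to 0.36 to either side on the log2 scale, which gives the precision of each single value before adjustment over all probe sets.

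**Figure D1:**
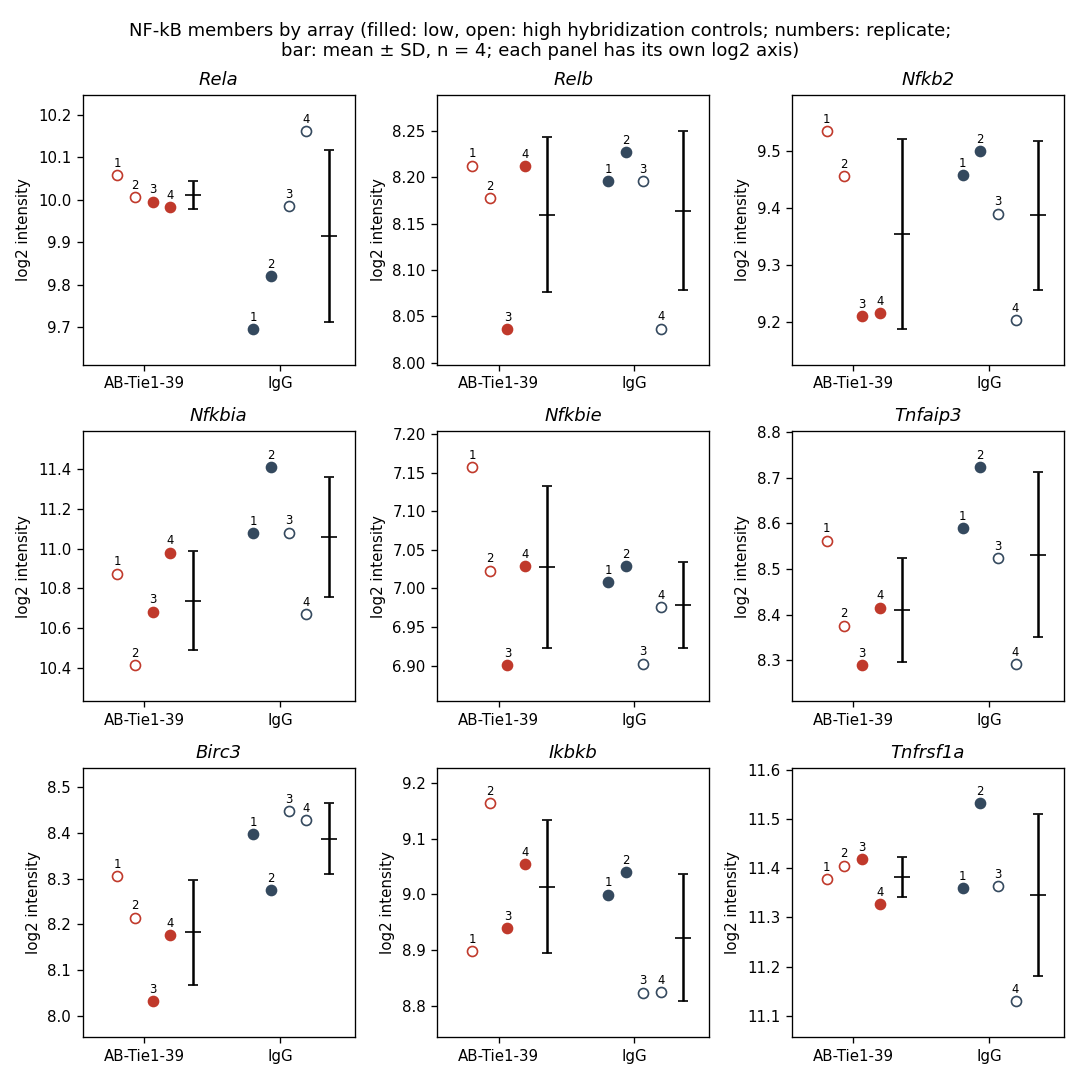
Log2 intensity of the 9 measured NF-kB members on each array, AB-Tie1-39 left and IgG right, with replicate numbers, filled points for low and open points for high hybridization controls, and bars for the mean ± SD (n = 4); each panel has its own axis. The groups overlap in all 9 panels, Birc3 has 3 AB-Tie1-39 arrays below all IgG arrays, and IgG 4 is the lowest IgG array in 5 panels.

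None of the measured subunits passed the adjusted test, and each difference was smaller than the spread between mice pooled over both groups. Rela encodes p65, the subunit that carries most of the activating function of the classical pathway. Its level was 10.059, 10.006, 9.995 and 9.983 on the AB-Tie1-39 arrays 1 to 4 and 9.696, 9.821, 9.984 and 10.162 on the IgG arrays 1 to 4. The AB-Tie1-39 arrays lay close together inside the wider IgG range. The difference was 0.095 (standard error 0.098, 95% interval -0.12 to 0.31; limma adjusted p = 0.977).

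Relb encodes the subunit that acts in the alternative pathway, started by receptors such as the lymphotoxin beta receptor. It measured 8.21, 8.18, 8.04 and 8.21 in AB-Tie1-39-treated and 8.20, 8.23, 8.20 and 8.04 in IgG-treated mice. In each group 1 array, AB-Tie1-39 3 and IgG 4, lay below the other 3, both at the same level. The difference was -0.0045 (standard error 0.075, 95% interval -0.17 to 0.16; limma adjusted p = 1.00).

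Nfkb2 encodes p100, an inhibitor-like precursor that is processed to the partner of RelB. It was at 9.54, 9.46, 9.21 and 9.22 on the AB-Tie1-39 arrays and at 9.46, 9.50, 9.39 and 9.20 on the IgG arrays. The AB-Tie1-39 arrays fell into a higher pair, those with high hybridization controls, and a lower pair, those with low controls. The overall difference was -0.033 (standard error 0.10, 95% interval -0.26 to 0.19; limma adjusted p = 0.995).

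Of the inhibitors, Nfkbia had the largest difference of any member with all 8 arrays, and Nfkbie one near 0. Nfkbia encodes IkB-alpha, the main classical inhibitor and a rapid NF-kB target. Its level was 10.87, 10.41, 10.68 and 10.98 on the AB-Tie1-39 arrays and 11.08, 11.41, 11.08 and 10.67 on the IgG arrays. All AB-Tie1-39 arrays were below IgG 1, 2 and 3, but IgG 4 lay among them, below 3 of the 4 AB-Tie1-39 arrays. The means were 10.74 ± 0.25 in AB-Tie1-39-treated and 11.06 ± 0.30 in IgG-treated mice (SD, n = 4 each), a difference of -0.32 (standard error 0.16, 95% interval -0.68 to 0.036), or 1.25-fold lower in AB-Tie1-39-treated mice. It did not pass the test (limma adjusted p = 0.951; exact two-sided permutation test over 70 arrangements, p = 0.171). With 1 array left out the difference was -0.45 (without IgG 4) to -0.21 (without IgG 2, where Birc3, at -0.24, differed more), and it was also -0.21 without AB-Tie1-39 2. The spread between mice of a group, 0.28, was larger than that of 93.1% of all probe sets.

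Nfkbie encodes IkB-epsilon, an inhibitor induced later than IkB-alpha. It measured 7.16, 7.02, 6.90 and 7.03 on the AB-Tie1-39 arrays and 7.01, 7.03, 6.90 and 6.98 on the IgG arrays. The arrays intermingled, with AB-Tie1-39 1 highest. The difference was 0.048 (standard error 0.075, 95% interval -0.12 to 0.21; limma adjusted p = 0.987). It is the only measured member below the median probe set level of 7.54, and its values lie within the range of the background probe sets.

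Both feedback genes had lower means in AB-Tie1-39-treated mice, and neither passed the adjusted test. Birc3 encodes a ubiquitin ligase of the inhibitor of apoptosis family that is recruited to tumor necrosis factor receptors and is itself induced by NF-kB. Its level was 8.31, 8.21, 8.03 and 8.18 on the AB-Tie1-39 arrays and 8.40, 8.28, 8.45 and 8.43 on the IgG arrays. Only AB-Tie1-39 1 and IgG 2 overlapped, the first being slightly above the second. The means were 8.18 ± 0.11 in AB-Tie1-39-treated and 8.39 ± 0.077 in IgG-treated mice (SD, n = 4 each). The difference was -0.20 (standard error 0.079, 95% interval -0.38 to -0.028), or 1.15-fold lower. The difference was larger than the SD of either group but did not pass after adjustment over all probe sets. Its unadjusted limma p was 0.0271, its adjusted p 0.921, and the exact two-sided permutation test gave p = 0.0571, where the smallest p that 70 arrangements allow is 0.0286. The unadjusted p stayed under 0.05 when 3 of the 8 arrays were left out in turn and was 0.0549 without IgG 4, with differences of -0.25 to -0.15.

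Tnfaip3 encodes A20, a ubiquitin-editing enzyme that shuts off signaling from tumor necrosis factor and Toll-like receptors. It was at 8.56, 8.38, 8.29 and 8.42 on the AB-Tie1-39 arrays and at 8.59, 8.72, 8.52 and 8.29 on the IgG arrays. IgG 4 was level with the lowest AB-Tie1-39 array, and each of the other IgG arrays was above at least 3 of the 4 AB-Tie1-39 arrays. The difference was -0.12 (standard error 0.10, 95% interval -0.35 to 0.10; limma adjusted p = 0.966).

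The kinase and the receptor both had slightly higher means in AB-Tie1-39-treated mice. Ikbkb encodes IKK-beta, the kinase that marks IkB-alpha for destruction. Its level was 8.898, 9.164, 8.939 and 9.054 on the AB-Tie1-39 arrays and 8.9997, 9.039, 8.824 and 8.824 on the IgG arrays, and the groups overlapped. The difference was 0.092 (standard error 0.087, 95% interval -0.10 to 0.28; limma adjusted p = 0.974). Tnfrsf1a encodes the tumor necrosis factor receptor found on most cells, EC among them. It was at 11.38, 11.40, 11.42 and 11.33 on the AB-Tie1-39 arrays and at 11.36, 11.53, 11.36 and 11.13 on the IgG arrays. The AB-Tie1-39 arrays lay close together between IgG 4 and IgG 2. The difference was 0.037 (standard error 0.088, 95% interval -0.16 to 0.23; limma adjusted p = 0.990).

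**Figure D2:**
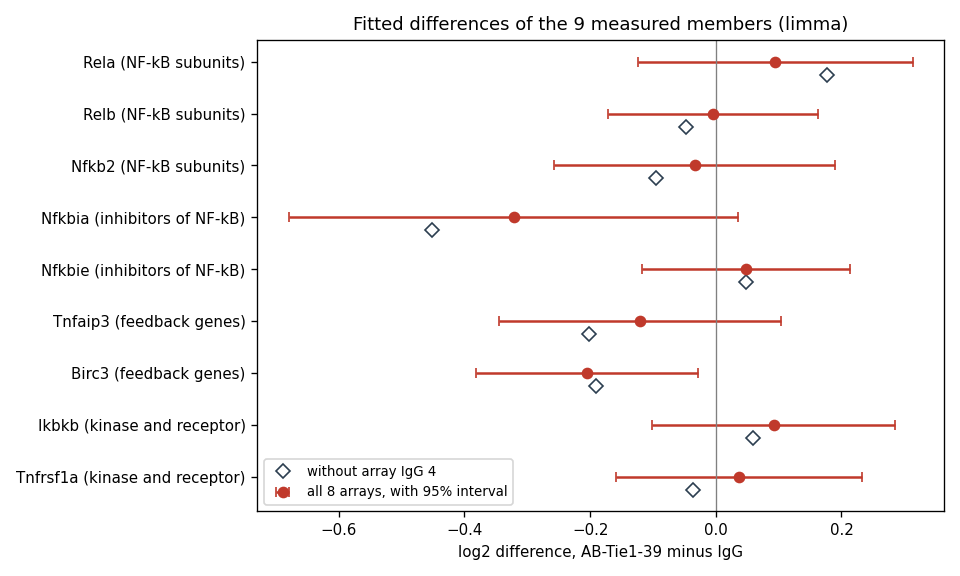
Fitted log2 difference, AB-Tie1-39 minus IgG, of each measured member with its 95% interval (red, all 8 arrays) and the difference without array IgG 4 (open diamonds). All intervals but that of Birc3 (-0.38 to -0.028) include 0, and leaving out IgG 4 moves Nfkbia from -0.32 to -0.45.

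Array IgG 4 was the lowest IgG array for 5 of the 9 members (Relb, Nfkb2, Nfkbia, Tnfaip3 and Tnfrsf1a) and the highest for Rela. Among all probe sets it was the lowest IgG array for 26.6%. Without it the difference of Nfkbia was -0.45 (standard error 0.14; limma adjusted p = 0.725) and that of Tnfaip3 was -0.20 (standard error 0.088; limma adjusted p = 0.853). Leaving out IgG 2 instead moved them the other way, to -0.21 for Nfkbia and -0.057 for Tnfaip3. Without IgG 4, these 2 of 9 members were called lower at an unadjusted p under 0.05, against 3.34% of all probe sets called lower, 2.47% called higher and 5.81% in either direction, and 0 members were called higher. No member passed the adjusted test without IgG 4, while 0.0811% of all probe sets did. Rela had a difference of 0.18 without IgG 4 (limma adjusted p = 0.868) and of 0.022 without IgG 1. Without IgG 4, Nfkb2 had one of -0.095, and Tnfrsf1a one of -0.035, in the other direction than with all arrays. Nfkbia and Tnfaip3 thus lay further below 0 without this array, whereas Birc3 (-0.19) and Nfkbie (0.047) hardly moved. Marker lists also set IgG 4 apart. The EC markers averaged 11.22 on IgG 4, the lowest of all arrays, and 11.36 to 11.39 on the other IgG arrays. The lung endothelium markers went the other way, at 11.14 on IgG 4 and 11.08 to 11.13 on the other IgG arrays. Markers of lymphatic EC averaged 8.96 on IgG 4 and 9.19 to 9.36 on the other IgG arrays. Markers of platelets averaged 8.69 on IgG 4 and 9.06 to 9.38 on the other IgG arrays, and markers of alveolar type 2 cells averaged 9.04 on IgG 4 and 8.29 to 8.58 on the others.

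The differences were also taken within the arrays with low and within those with high hybridization controls. Within the arrays with low controls the difference of Nfkb2 was -0.27 and within those with high controls 0.20, a change of -0.47 (standard error 0.14) between the parts (interaction term, limma adjusted p = 0.852). Across the array, 0 probe sets reached an adjusted p under 0.05 for this interaction, and 5.32% of all probe sets and 1 of the 9 members had an unadjusted p under 0.05. Tnfaip3 differed by -0.30 within the low and 0.062 within the high controls (interaction adjusted p = 0.938, limma), and Rela by 0.23 among the low and -0.041 among the high ones (interaction adjusted p = 0.940, limma). Nfkbia was lower by mean in AB-Tie1-39-treated mice in both parts, with differences of -0.41 (low) and -0.23 (high), and so was Birc3, with -0.23 (low) and -0.18 (high). Each part holds only 2 arrays a group.

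**Figure D3:**
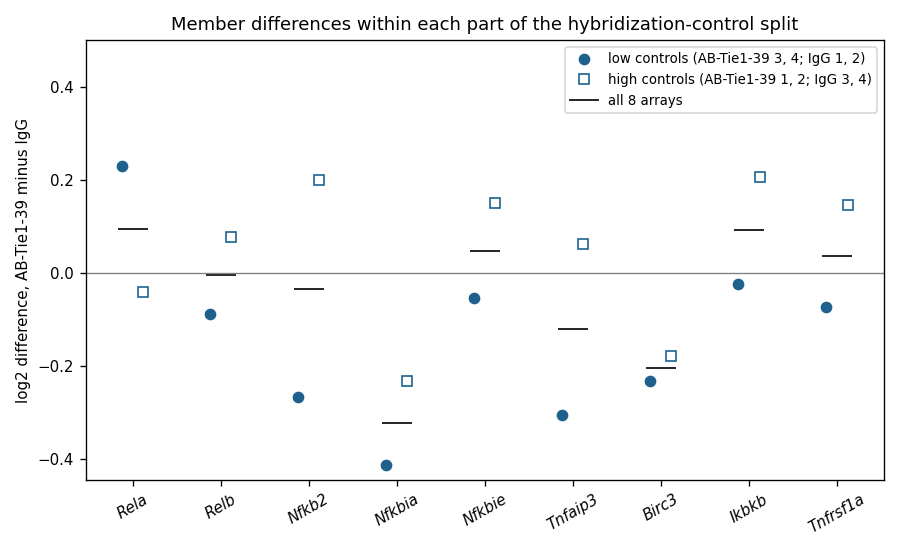
Log2 difference, AB-Tie1-39 minus IgG, of each member within the arrays with low hybridization controls (filled circles), within those with high controls (open squares) and over all 8 arrays (bars). Nfkbia and Birc3 lie below 0 in both parts, while the other 7 members change sign between them, with Nfkb2 at -0.27 and 0.20.

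The wider pathway was read from 6 lists with 75 genes, of which 69 were measured (Chuk, Tnfsf12, Traf3, Ripk1, Irak1 and Irak4 were not named on the array). Of the 69, 34 had higher and 35 lower means in AB-Tie1-39-treated mice, with a median difference of -0.0058. None passed the adjusted test. At an unadjusted p under 0.05, 0 were higher and 2 lower (2.9% of 69), against 2.17% higher and 3.15% lower over all probe sets. The share called lower was thus no larger than over all probe sets. Both genes, Plau and Gadd45b, come from the list of 20 endothelial targets. Nfkbid, Ikbke, Ltb, Tnfsf11, Cyld, Otulin, Plau, Ccl5, Sele and Tnfaip2, all named below, averaged within the range of the background probe sets in both groups.

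Subunits and inhibitors outside the members lay near 0, with 3 of 5 higher and 2 lower by mean and a median difference of 0.037. Nfkbiz, an IkB family protein that works in the nucleus, had the smallest p among those with lower means, at -0.14 (standard error 0.10; limma adjusted p = 0.965). Nfkbid, another nuclear IkB protein, was at 0.049 (standard error 0.074; limma adjusted p = 0.987). Neither difference exceeded the spread between mice pooled over both groups.

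Among 8 measured kinases and their partners, 4 were higher and 4 lower by mean, with a median difference of -0.0086. Map3k14 encodes NIK, the kinase that starts the alternative pathway. It was at 8.47, 8.65, 8.45 and 8.24 on the AB-Tie1-39 arrays and at 8.28, 8.38, 8.29 and 7.96 on the IgG arrays. AB-Tie1-39 4 fell inside the IgG range, and the other AB-Tie1-39 arrays were above all IgG arrays. The difference was 0.23 (standard error 0.11; limma adjusted p = 0.951), and 0.14 without IgG 4, the lowest array. Ikbke, a kinase related to the IKK complex, was at -0.19 (standard error 0.16; limma adjusted p = 0.969).

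Of 9 ligands, 6 were higher and 3 lower by mean, with a median difference of 0.029. Ltb, a ligand chain of the lymphotoxin beta receptor that lymphocytes make, was at 8.02 on AB-Tie1-39 3, while its other 7 arrays were at 6.86 to 7.03. The remaining AB-Tie1-39 arrays spanned the IgG range. The difference was 0.29 (standard error 0.22; limma adjusted p = 0.965). Tnfsf11, which encodes RANK ligand, was at -0.11 (standard error 0.076; limma adjusted p = 0.965).

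Of 17 receptors and adaptors, 7 were higher and 10 lower by mean, with a median difference of -0.017. Ticam1, an adaptor of the Toll-like receptors for double-stranded RNA and for lipopolysaccharide, was at 0.18 (standard error 0.098; limma adjusted p = 0.955), and Il1r1, the signaling chain of an interleukin receptor, at -0.13 (standard error 0.077; limma adjusted p = 0.955). The 10 further feedback genes divided into 6 higher and 4 lower by mean, with a median of 0.035. Cyld, a deubiquitinase that restrains NF-kB, was at 0.18 (standard error 0.14; limma adjusted p = 0.965), and Otulin, which cleaves linear ubiquitin chains, at -0.072 (standard error 0.086; limma adjusted p = 0.978). The lower means of Birc3 and Tnfaip3 thus stood beside no common direction among the other feedback genes.

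**Figure D4:**
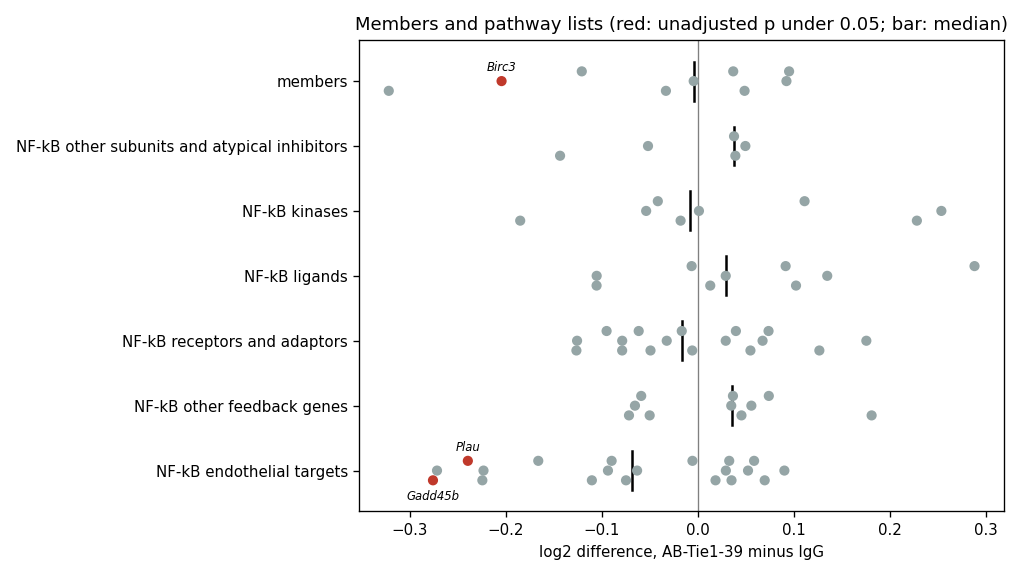
Log2 difference, AB-Tie1-39 minus IgG, of each measured gene of the members and the 6 pathway lists, with a bar at each list's median; red points have an unadjusted limma p under 0.05. The medians run from -0.069 (endothelial targets) to 0.037, and the 3 red points, Birc3, Plau and Gadd45b, are all lower in AB-Tie1-39-treated mice.

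Among the 6 pathway lists, that of the NF-kB targets of EC had the lowest median, -0.069. Of its genes, 8 of 20 were higher and 12 lower by mean. The list averaged 8.21 to 8.34 on the AB-Tie1-39 arrays and 8.26 to 8.42 on the IgG arrays. At an unadjusted p under 0.05, 2 of 20 were lower and 0 higher, against 3.15% lower over all probe sets. A match to the kB consensus was present for 8 of the 15 target genes with a window (53.3%). Over the 6 lists it was present for 21 of 63 genes (33.3%), and over all genes for 5.14%. The 8 targets with a match do not include the 2 lower ones, Plau and Gadd45b, and a gene without a window could not have one. None of the 8 had an unadjusted p under 0.05.

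Plau encodes urokinase, a protease that activates plasminogen at the surface of migrating cells. It was at 7.295, 7.357, 7.356 and 7.401 on the AB-Tie1-39 arrays and at 7.670, 7.565, 7.635 and 7.498 on the IgG arrays. Every AB-Tie1-39 array lay below every IgG array, which held for 1 of the 69 pathway genes and for 1.78% of all probe sets. The difference was -0.24 (standard error 0.068, 95% interval -0.39 to -0.088), or 1.18-fold lower (limma adjusted p = 0.840). The exact two-sided permutation test gave p = 0.0286, the smallest it allows, which the lack of overlap alone fixes. Plau had an unadjusted p under 0.05 with any 1 of the 8 arrays left out (-0.27 to -0.21), and it differed by -0.24 among the arrays with low and by -0.24 among those with high hybridization controls. Its level is below the median probe set level and within the range of the background probe sets.

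Gadd45b encodes a stress-induced protein that NF-kB uses to restrain the kinase JNK. It was at 10.69, 10.51, 10.14 and 10.17 on the AB-Tie1-39 arrays and at 10.74, 10.67, 10.63 and 10.57 on the IgG arrays. The low values were those of AB-Tie1-39 3 and 4, and AB-Tie1-39 1 lay among the IgG arrays. The difference was -0.28 (standard error 0.12; limma adjusted p = 0.932). It was -0.55 among the arrays with low hybridization controls and -0.00019 among the others, so it rests on arrays with low controls. With 1 array left out it was -0.38 to -0.20, and the unadjusted p stayed under 0.05 in 2 of 8 cases, those without AB-Tie1-39 1 or 2, and not without IgG 4 (-0.30). Ccl5, a chemokine for T cells and monocytes, had the smallest p of the targets with higher means, at 0.090 (standard error 0.071; limma adjusted p = 0.965).

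The selectins, adhesion molecules on which leukocytes roll along the vessel wall, had IgG 4 below all other arrays. They were picked out after their values were seen, and so was Tnfaip2. Sele, the selectin made by EC, was at 7.49, 7.36, 7.41 and 7.52 on the AB-Tie1-39 arrays and at 7.99, 7.86, 7.68 and 7.15 on the IgG arrays. IgG 4 was the lowest of all 8 arrays and the other IgG arrays were the highest. All Sele values but that of IgG 1 lay within the range of the background probe sets. The difference was -0.22 with all arrays (limma adjusted p = 0.965) and -0.40 without IgG 4 (limma adjusted p = 0.441). Selp, which EC and platelets both store, was at 10.13, 9.82, 10.29 and 9.60 on the AB-Tie1-39 arrays and at 10.44, 10.56, 10.41 and 9.52 on the IgG arrays. It showed the same arrangement, with a difference of -0.27 (limma adjusted p = 0.966) and of -0.51 without IgG 4 (limma adjusted p = 0.668). Without IgG 4, 4 of the 20 targets were lower at an unadjusted p under 0.05 (Sele, Selp, Plau and Tnfaip2). The share over all probe sets was 3.34%, and none of the targets passed the adjusted test. IgG 4 was the lowest array for both selectins, so leaving it out had to widen their differences. The targets were not counted with another array left out, and this count is no separate support for lower targets.

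**Figure D5:**
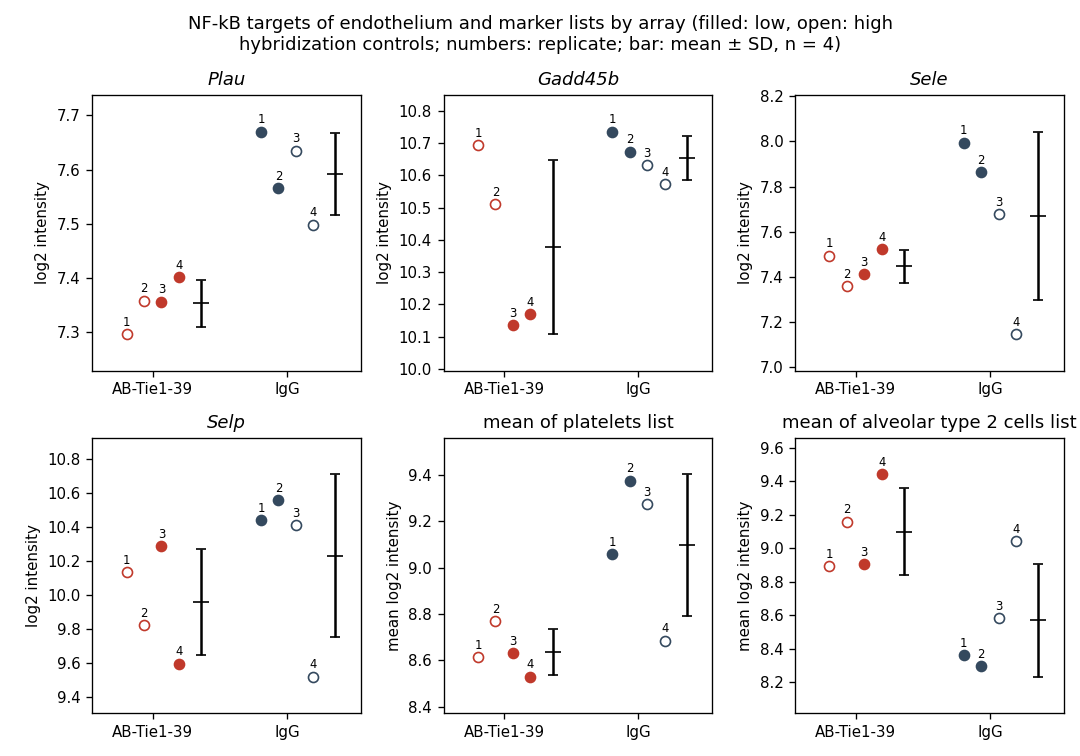
Log2 intensity by array of Plau, Gadd45b, Sele and Selp and the mean over the platelet and the alveolar type 2 cell markers, AB-Tie1-39 left and IgG right, with replicate numbers, filled points for low and open points for high hybridization controls, and bars for the mean ± SD (n = 4). Plau separates the groups without overlap, and IgG 4 lies with the AB-Tie1-39 arrays in the platelet and alveolar type 2 panels.

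Marker lists of other cell types also had different means in the treatments on these arrays. Of 6 measured platelet markers, 5 had lower means in AB-Tie1-39-treated mice and 4 an unadjusted p under 0.05 (none passed the adjusted test), and the list averaged 8.53 to 8.77 on the AB-Tie1-39 arrays and 8.69 to 9.38 on the IgG arrays. All 6 alveolar type 2 cell markers had higher means, 4 of them with an unadjusted p under 0.05 (none passed the adjusted test), and the list averaged 8.89 to 9.44 on the AB-Tie1-39 arrays and 8.29 to 9.04 on the IgG arrays. In both lists IgG 4 lay nearer to the AB-Tie1-39 arrays than the other IgG arrays did. The sort was negative for LYVE1 and PDPN, markers of lymphatic EC, although the Lyve1 transcript was at 11.95 to 12.08 on the AB-Tie1-39 arrays and 11.75 to 12.12 on the IgG arrays. Of 6 lymphatic EC markers 4 had lower and 2 higher means, and 3 of the lower ones an unadjusted p under 0.05, again with none past the adjusted test, and the list averaged 8.87 to 8.97 on the AB-Tie1-39 arrays and 8.96 to 9.36 on the IgG arrays. Of 5 pericyte and smooth muscle markers, 4 had higher means and 1, Acta2, an unadjusted p under 0.05 (not past the adjusted test), and they averaged 7.32 to 7.47 on the AB-Tie1-39 arrays and 7.17 to 7.42 on the IgG arrays, and 5 hepatocyte markers 7.34 to 7.43 on the AB-Tie1-39 arrays and 7.30 to 7.40 on the IgG arrays, so the averages of both lists stayed within the range of the background probe sets. Acta2 itself was above it on the AB-Tie1-39 arrays, at 8.002 to 8.136, and at 7.689 to 8.029 on the IgG arrays. Of 10 genes induced by tissue dissociation, 9 had lower means in AB-Tie1-39-treated mice and 0 had an unadjusted p under 0.05, with averages of 11.11 to 11.29 on the AB-Tie1-39 arrays and 11.23 to 11.37 on the IgG arrays. Without IgG 4, 2 platelet markers and 1 lymphatic EC marker passed the adjusted test, all lower in AB-Tie1-39-treated mice. Over all probe sets 0.0811% did so, in either direction. The part of these cells and of dissociation in the values of the NF-kB genes was not tested.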

How the data were processed

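RNA of 8 sorted lung EC samples was measured on Clariom S arrays. The deposited values are linear intensities of each probe set, normalized by the authors with a method not given in the sources used here. The table holds 29129 probe sets, of which 6923 are array controls. Of the other 22206, 22204 were tested (2 of these with a missing value), 19572 carry 1 gene symbol and 2632 are unnamed. It has 0 columns of other samples. Array brightness has no depth; 4 arrays a group limit the precision.

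Log2 intensities were fitted with limma 3.58.1 in R 4.3.3 (eBayes without trend; AB-Tie1-39 minus IgG; Benjamini-Hochberg over all 22204 probe sets). For the arrays the study's methods name normalization and the Ingenuity software, and for groups in general a Mann-Whitney test among others, without assigning one to single probe sets. Single genes were also compared by an exact two-sided permutation test of the means. The script was tested on simulated data. Members and gene lists (6 of the pathway; markers of endothelium, lung endothelium, leukocytes, platelets, alveolar type 2 cells, lymphatic endothelium, pericytes and smooth muscle, hepatocytes; dissociation genes), written from textbook knowledge, were chosen with earlier results of these data known. The 5 lung endothelium markers averaged 11.08 to 11.24 on AB-Tie1-39 and 11.08 to 11.14 on IgG arrays.

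Named are every member, Tie1 and Tek, and of each pathway list the genes with an unadjusted p under 0.05 and the gene with the smallest p in each direction. Some marker genes are named as well. Lists are described by counts and medians, without a test. Alternatives were quantile normalization, median centring, a pseudocount of 16, a filter at the median level, eBayes with trend, array weights, the replicate number or the hybridization controls as a block, values within each part of the controls, the mean over a gene's probe sets, an exact Mann-Whitney test and each array left out. The interaction with the hybridization controls was added after seeing the data.

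Samples with the same replicate number did not deviate together (correlations of 0.00658, -0.0128, -0.05 and -0.0161). Correlations of unlike numbers were not set beside them, so these values give no sign of pairing but cannot exclude it.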

Additional observations from a re-analysis of the deposited data

Results flagged for a closer look

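Of 36 groups of 4 arrays examined for a single array far from the other 3, 2 were found, and chance gives about 1 in 20. In both cases the array was IgG 4. For Relb it was at 8.04 (log2 intensity) and the other IgG arrays were at 8.20 to 8.23, a gap of 0.835 of the group's range. For the mean of the other subunits and atypical inhibitors (Rel, Bcl3, Nfkbiz, Nfkbib and Nfkbid) it was at 9.24 and the others at 9.35 to 9.37, a gap of 0.83 of the range. The cause was not tested.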

How the results depend on the processing

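Over 170 combinations of a member and an alternative, 138 kept direction and side of the threshold, 7 passed an unadjusted p under 0.05 that had been missed, 8 lost it and 17 turned direction. All 8 losses were of Birc3, the only member that had such a p to lose. The 0 probe sets at an adjusted p under 0.05 stayed 0 under the alternatives of processing, model and controls for which it was counted (not for the mean over a gene's probe sets), where the Mann-Whitney test could not have passed with 4 against 4 arrays, and leaving out 1 array gave 0 to 18 (18 without IgG 4). The members with an unadjusted p under 0.05, 1 with all arrays and no block, were 2 with array weights (Nfkbia added), 3 within the low and 0 within the high hybridization controls, 0 with the exact Mann-Whitney test and 0 to 2 with 1 array left out. With the replicate number as a block 0 were called (Birc3 at -0.20), and this block ended no other call among the members. The share of all probe sets called was counted only for the fit with all arrays (5.32%) and without IgG 4 (5.81%). The other member counts here have no such share beside them. The members' median difference was -0.087 within the low and 0.078 within the high controls and -0.047 to 0.024 with 1 array left out. Direction turned within the low controls for Ikbkb (-0.023), Nfkbie (-0.054) and Tnfrsf1a (-0.072), and within the high controls for Nfkb2 (0.20), Rela (-0.041), Relb (0.078) and Tnfaip3 (0.062). Relb was at 0.0020 after quantile normalization and at 0.0029 after median centring. With 1 array left out, Relb ranged over -0.047 to 0.036, Nfkb2 over -0.095 to 0.015 and Tnfrsf1a over -0.035 to 0.099, turning direction. The cause was not tested. The filter at the median level left out Nfkbie, which has no value there.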
